A study of Rattus norvegicus with 16 samples.

Results

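Ca3 encodes carbonic anhydrase III, and its row was taken from the deposited gene table by its symbol (Ca3, NCBI gene 54232), as 1 of 17544 genes. It was measured by mRNA sequencing in 16 liver samples of male SD rats that had received intraperitoneal injections over 28 days, to examine how xylazine harms the liver. Xylazine is a sedative of veterinary use and an agonist of alpha-2 adrenergic receptors. The 4 groups were normal saline and xylazine at 10, 20 and 40 mg/kg, with 4 livers sampled in each. The labels do not state that each liver sample came from its own rat, so p-values measure the spread between these samples. The table held 13 other carbonic anhydrase rows, and Ca3 is set beside these. Ca3 was picked with its fall at 40 mg/kg already known, so its levels are given as a description with no test, while the other family members were tested.

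Carbonic anhydrases interconvert carbon dioxide and bicarbonate, most of them at an active site that holds a zinc ion. Carbonic anhydrase III is a cytosolic form with low activity for that reaction, and its surface cysteines can be bound by glutathione during oxidative stress. It is abundant in slow skeletal muscle, in fat cells and in liver, and in rats the liver level is higher in males and depends on the pattern of growth hormone release. In rodent liver the protein is richer in hepatocytes near the central vein.

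Ca3 was among the most abundant transcripts of saline liver and had 38.6% of that level at 40 mg/kg. In counts per 1e6 reads after scaling between libraries (CPM), the saline livers 1 to 4 had 3768, 4085, 5619 and 5830 CPM. The livers given 10 mg/kg had 4860, 3543, 2759 and 5415 CPM. These ranges overlapped, with 2 of the 4 livers below every saline liver. All 4 lay below all saline livers for 1.12% of the 12732 genes tested at 10 mg/kg, for 2.26% at 20 mg/kg and for 4.85% at 40 mg/kg. At 20 mg/kg the levels were 2698, 3447, 3834 and 3481 CPM, 3 of them below every saline liver, and all 8 livers of the upper doses lay below saline for 1.12% of genes, Ca3 not among them. At 40 mg/kg they were 2346, 1635, 2106 and 1371 CPM. All 4 of these lay below all 12 other libraries, a pattern found for 0.283% of genes. Ca3 was chosen for this contrast, and nothing is read from these shares.

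**Figure D1:**
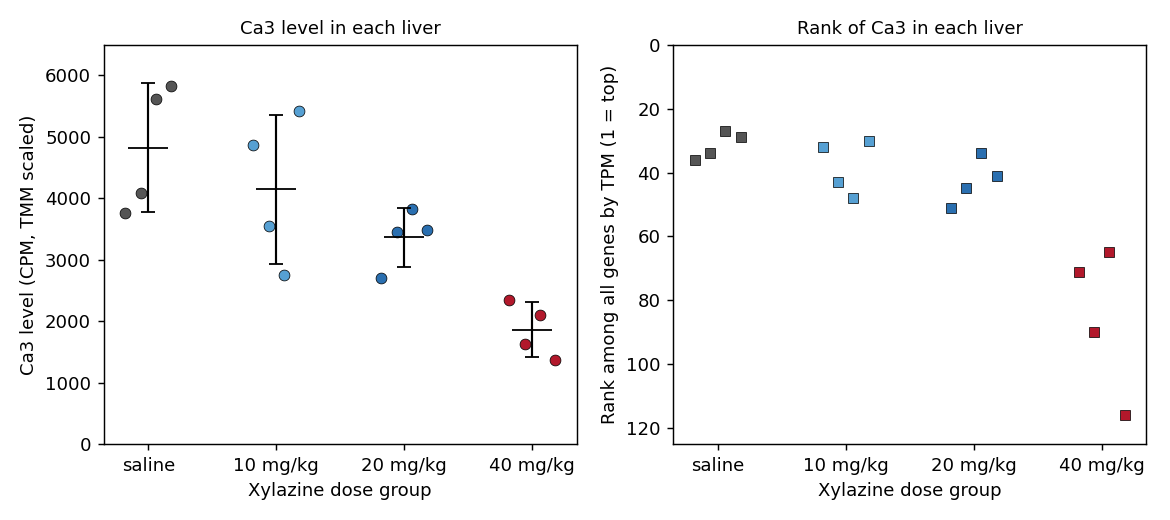
Left, Ca3 level in CPM for each liver, by dose group, with the mean and SD (n = 4) as a bar and whiskers; right, the rank of Ca3 among all genes of the same liver by TPM, where 1 is the top. The 40 mg/kg livers lie between 1371 and 2346 CPM, below all others, and their ranks lie between 65 and 116.

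The group means fell in the order of the dose, from 4825.5 ± 1049.7 CPM (SD, n = 4) in saline to 4144 ± 1212 at 10 mg/kg, 3365 ± 477.8 at 20 mg/kg and 1864 ± 442.4 at 40 mg/kg. These are 85.9%, 69.7% and 38.6% of the saline mean. On a log2 scale the group means differed from saline by -0.24, -0.51 and -1.38, while the SD within a group was between 0.22 and 0.44. Neighbouring groups from saline to 20 mg/kg differed by steps of -0.24 and -0.26, and their livers overlapped. The SD of 0.22 was that of the 20 mg/kg group. The step from 20 to 40 mg/kg was -0.87, and the livers did not overlap. The share of genes without overlap between these doses was not counted. At 40 mg/kg all 4 livers lay below the 12 other libraries for 0.283% of genes. The SDs are those of single livers and Ca3 was chosen for its fall, so nothing is read from the sizes of the steps. Leaving out xylazine 10 replicate 3 moved the difference at 10 mg/kg to -0.06, and leaving out replicate 4 moved it to -0.39. In tissue RNA, less RNA per cell and fewer cells that make it cannot be told apart.

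TPM, the authors' transcript level scaled for gene length and library total, gave the same order of groups. Ca3 had 3507 ± 686.5 TPM in saline, 2977 ± 798.0 at 10 mg/kg, 2584 ± 523.0 at 20 mg/kg and 1407 ± 274.0 at 40 mg/kg (SD, n = 4 each). By TPM it ranked between 27 and 36 among all genes in the saline livers and between 65 and 116 at 40 mg/kg. At 10 mg/kg the rank was between 30 and 48, and at 20 mg/kg between 34 and 51. Among the 100 most abundant genes of saline liver, whose median log2 difference at 40 mg/kg was -0.01, Ugt2b (-2.88) and Obp3 (-2.58) lay lower than Ca3. Pck1 (-1.14) came next. These genes were named after their values were seen. The estimated counts of Ca3 were whole numbers in all 16 libraries, from 23507 to 93074 reads. Whole counts were common, at 92.2% to 93% of all 17544 genes in each library.

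The other carbonic anhydrases were far less abundant and showed no common direction. The 13 other rows together summed to between 156 and 191 TPM in any liver. Ca3 alone stood at 16.2 to 24.1 times that sum in saline, 12.3 to 20.9 times at 10 mg/kg, 11.2 to 17.6 times at 20 mg/kg and 5.87 to 10.4 times at 40 mg/kg. Of the 13, 9 passed the filter on low counts. At 40 mg/kg 1 of these 9 was called lower and none higher by edgeR's quasi-likelihood test at an adjusted p under 0.05, where 1.11% of all genes were called, 0.471% higher and 0.636% lower. Over the 9 the median log2 fold change was -0.13, and over all genes it was 0. In a trend over dose, given as the log2 change from saline to 40 mg/kg, 1 of 9 was again called lower, against 2.91% of all genes, 1.28% higher and 1.63% lower. At 10 and at 20 mg/kg edgeR called none of the 9 and 0% of all genes. At an unadjusted p under 0.05 there were 1 of the 9 at 10 mg/kg, 0 at 20 mg/kg and 2 at 40 mg/kg. In the trend there were 3, all lower (Car1, Ca5a and Ca5b). Beside these were 509, 1162, 2063 and, in the trend, 2391 of all 12732 genes. Of the 9 fold changes, 4 were positive and 5 negative at each dose, and 3 were positive and 6 negative in the trend. DESeq2 called 0, 0 and 1 of the 9 at 10, 20 and 40 mg/kg, and 1, 60 and 523 of all genes.

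**Figure D2:**
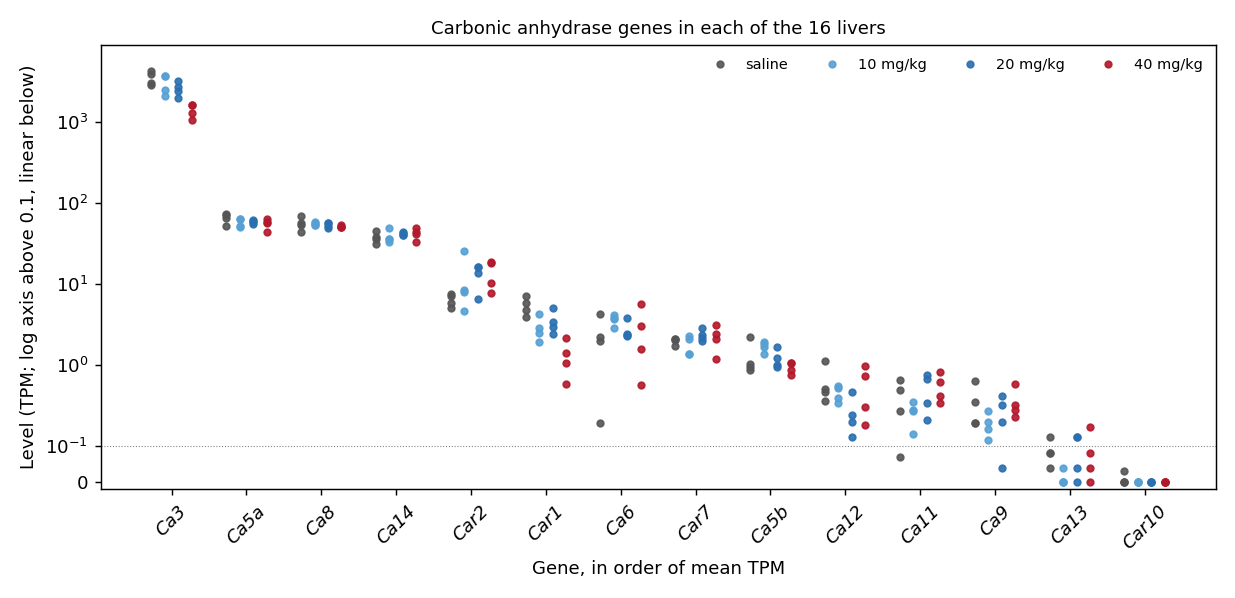
TPM of the 14 carbonic anhydrase genes in each of the 16 livers, coloured by dose group, with genes in order of mean TPM and a log axis above 0.1. Ca3 lies above 1000 TPM in every liver, while Ca5a, Ca8 and Ca14 lie between 30.9 and 72.9 TPM.

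The member called was Car1 (gene 310218), the cytosolic carbonic anhydrase I known from red blood cells. The saline livers had 3.53, 5.21, 4.41 and 3.09 CPM of Car1, and the 40 mg/kg livers had 0.411, 1, 1.5 and 0.758 CPM. The ranges did not overlap, and at 40 mg/kg all 4 livers lay below all saline livers for 4.85% of genes tested. The log2 fold change was -2.13 (SE 0.362, edgeR adjusted p = 0.015), with 4 of 4 livers below all of saline. The 10 mg/kg livers stood at 2.15, 1.43, 1.78 and 3.40 CPM and the 20 mg/kg livers at 1.75, 2.59, 1.87 and 3.81 CPM, with log2 fold changes of -0.89 (SE 0.335, adjusted p = 0.999) and -0.70 (SE 0.331, adjusted p = 0.549). The dose trend was -1.95 (SE 0.372, adjusted p = 0.0127) and shares its saline and 40 mg/kg livers with the first comparison. These levels rest on few reads, 7 to 87 per library. Without xylazine 40 replicate 4 the call at 40 mg/kg ended (edgeR adjusted p = 0.0548), while the trend's call held in all 16 removals of 1 library (adjusted p of at most 0.0416).

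Red cell transcripts were measured beside Car1. The 12 erythroid rows, led by the globin gene Hba-a1, summed to between 2329 and 7617 TPM in saline and between 1738 and 8480 TPM at 40 mg/kg, and none of the 7 tested was called at 40 mg/kg by edgeR (1 at an unadjusted p under 0.05) or by DESeq2. Their median log2 fold change was 0.23 at 40 mg/kg, with 6 of 7 positive. In the dose trend the median was 0.32, with 6 of 7 positive and 1 at an unadjusted p under 0.05. There edgeR called 0 of the 7, and DESeq2 called 1, beside 752 of all genes. At the lower doses the median had the same sign as the change of Car1. It was -0.57 with 7 of 7 negative at 10 mg/kg and -0.84 with 6 of 7 negative at 20 mg/kg. None was called at these doses by edgeR or DESeq2, and 0 had an unadjusted p under 0.05. Alas2, which starts haem synthesis in red cell precursors, stood at 4.97, 4.62, 3.32 and 11.3 CPM in saline and at 15.6, 10.3, 4.33 and 2.74 CPM in the 40 mg/kg livers (log2 0.45, SE 0.51, edgeR adjusted p = 0.719). Its log2 fold change was -0.69 (SE 0.532, adjusted p = 0.999) at 10 mg/kg and -0.84 (SE 0.535, adjusted p = 0.682) at 20 mg/kg. The 40 mg/kg liver with the lowest Car1, replicate 1, had the highest Alas2 of the 16. In the same group replicate 4, with the next lowest Car1 (0.758 CPM), had the lowest Alas2 (2.74 CPM). The part of red cells in the Car1 result was not tested.

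Car2 (gene 54231), the fast cytosolic form found in red cells, bile duct and many other cells, had higher means under xylazine but was not called. Saline livers had 6.76, 7.07, 5.19 and 6.05 CPM, within a narrow range. The livers given 40 mg/kg had 9.21, 16.6, 6.93 and 15 CPM, so that 1 of 4 lay within the saline range. The log2 fold changes were 0.76 (SE 0.454) at 10 mg/kg, 0.90 (SE 0.452) at 20 mg/kg and 0.93 (SE 0.452) at 40 mg/kg, with edgeR adjusted p of 0.999, 0.582 and 0.332. At 10 mg/kg the mean was carried by replicate 1 with 23.1 CPM, beside 4.28, 6.98 and 8.13 CPM in the others.

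**Figure D3:**
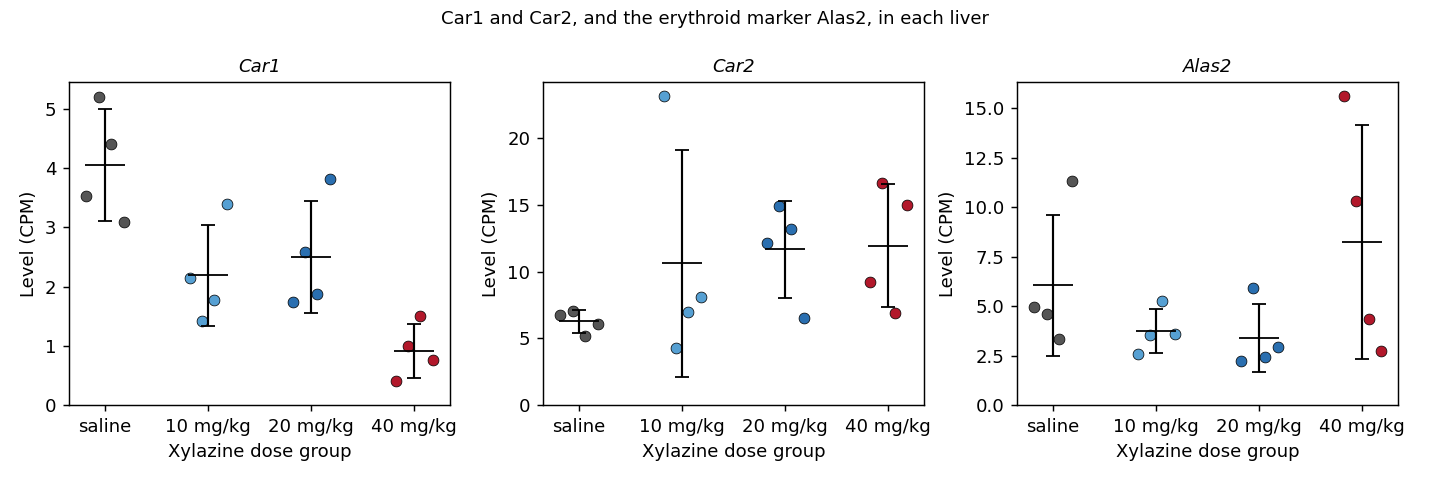
CPM of Car1, Car2 and the erythroid marker Alas2 in each liver, by dose group, with the mean and SD (n = 4). Car1 lies between 0.411 and 1.5 CPM at 40 mg/kg and above 3 CPM in every saline liver, whereas the groups overlap for Car2 and Alas2.

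The 3 most abundant members after Ca3 were not called at any dose, and their groups overlapped. Ca5a, the mitochondrial form that supplies bicarbonate to pyruvate carboxylase and to the urea cycle in liver, had 65.4 ± 9.14 TPM in saline and 55.1 ± 8.18 TPM at 40 mg/kg (log2 -0.30, SE 0.12, edgeR adjusted p = 0.222). Ca8, a related protein without carbonic anhydrase activity that binds the inositol trisphosphate receptor, had 56.1 ± 10.7 and 51.2 ± 1.64 TPM (log2 -0.13, SE 0.116, adjusted p = 0.614). Ca14, a membrane-bound form with its active site outside the cell, had 37.7 ± 6.02 and 41.9 ± 6.58 TPM (log2 0.13, SE 0.153, adjusted p = 0.735). Its estimated counts were whole in 0 of 16 libraries, as estimation gives when reads match more than 1 place, so its level is uncertain.

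The remaining tested members stood at a few TPM. Ca5b, the mitochondrial form of other tissues, had 1.27 ± 0.64 TPM in saline and 0.938 ± 0.153 TPM at 40 mg/kg (log2 -0.56, SE 0.307, edgeR adjusted p = 0.392). Ca6, the secreted form of saliva, ranged from 0.19 to 4.27 TPM within saline alone. Car7, a cytosolic form best known from brain, had 1.97 ± 0.179 and 2.20 ± 0.781 TPM. Ca12, a membrane form known from kidney and tumours, had 0.61 ± 0.339 and 0.542 ± 0.365 TPM. Ca6, Car7 and Ca12 were not called at any dose or in the trend (edgeR adjusted p of at least 0.565). The 4 rows left out by the filter had 0 to 16 reads per library. Ca9, the hypoxia-induced membrane form, had 1 to 16 reads and Ca11, a related protein without activity, had 1 to 12. Ca13, a cytosolic form, had 0 to 4, and Car10, another related protein, had 1 read in 1 library and 0 in 15. No difference in these 4 was detectable at this depth.

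**Figure D4:**
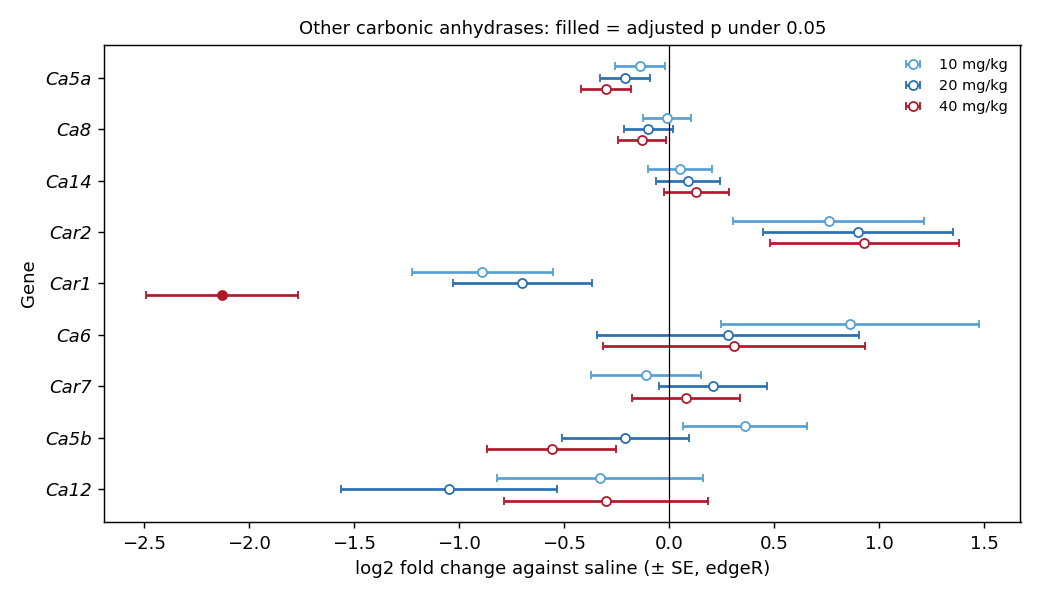
Log2 fold change against saline with its SE (edgeR) for the 9 other carbonic anhydrases tested, at each dose, with filled points for an adjusted p under 0.05. Car1 at 40 mg/kg, at -2.13, is the filled point, and Car2 lies at 0.76 to 0.93 with wide errors.

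Both Ca3 and Car1 belong to a run of 4 neighbouring carbonic anhydrase genes. In the RefSeq gene table of the rat assembly GRCr8, the order on chromosome 2 is Car2, Ca3 (listed there as Car3), Car1 and Car13, followed by Rbis, E2f5 and Lrrcc1. The neighbours did not share a direction. At 40 mg/kg the log2 difference from saline was -1.38 for Ca3, and the log2 fold change was -2.13 for Car1, 0.93 for Car2, -0.07 for Rbis, a ribosome biogenesis factor, 0.01 for the cell cycle factor E2f5 and -0.04 for Lrrcc1. Rbis (SE 0.089, edgeR adjusted p = 0.759), E2f5 (SE 0.212, adjusted p = 0.992) and Lrrcc1 (SE 0.37, adjusted p = 0.977) were not called. Ca13 was too low to test. On the other side of Car2, beyond a gene that was not tested, Sirpd stood at -5.04 on the same scale (SE 1.7, edgeR adjusted p = 0.152). At 10 and 20 mg/kg it stood at -1.44 (SE 1.09) and 0.29 (SE 0.931), so its estimates were imprecise at every dose.

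Genes were then ranked by how closely their log2 CPM followed Ca3 over the 16 livers, among 8659 named genes with a mean of at least 5 CPM. The order rests on Pearson's r and is a description, without p, since these genes were picked by r itself and all share the dose groups. The closest were Pck1 (r = 0.85, Spearman's rho 0.79), the committed enzyme of gluconeogenesis, and Cyp8b1 (r = 0.85, rho 0.87), the sterol hydroxylase that directs bile acid synthesis to cholic acid. Pck1 stood at 1941, 2631, 2411 and 3705 CPM in saline and at 1149, 1237, 1647 and 828 CPM at 40 mg/kg. At 10 mg/kg it had 2711 to 3208 CPM, within the saline range. Cyp8b1 stood at 229, 215, 410 and 246 CPM in saline and at 53.7, 61.6, 120 and 94.7 CPM at 40 mg/kg. Without the 2 livers farthest from the median of Ca3, xylazine 40 replicates 2 and 4, r was 0.72 for Pck1 and 0.83 for Cyp8b1. After the group means were subtracted, r was 0.52 and 0.46.

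The other 8 of the 10 closest had r between 0.80 and 0.84. They were Rabgap1, a GTPase-activating protein, the scaffold gene Strn, the chromatin gene Msl1, the protease gene Ddi2, the cochaperone genes Cdc37l1 and Ahsa2, the sulfotransferase gene Sult1c3 and Rnd2. Their log2 fold changes at 40 mg/kg ran from -0.21 for Msl1 to -0.83 for Rnd2. The ranking depended on the measure: 3 of the 10 were also among the 10 closest by Spearman's rho, and 6 by TPM. Cyp8b1 was among the 10 closest in all 16 removals of 1 library, Pck1 and Rabgap1 in 15 and Sult1c3 in 4. The 5 genes that ran most opposite to Ca3 were Pgam5 (r = -0.87), Man2a2 (-0.85), Trim11 (-0.84), Anapc1 (-0.83) and Atp5mc1 (-0.81), a subunit gene of the ATP synthase. Their log2 fold changes at 40 mg/kg were between 0.27 and 0.43.

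**Figure D5:**
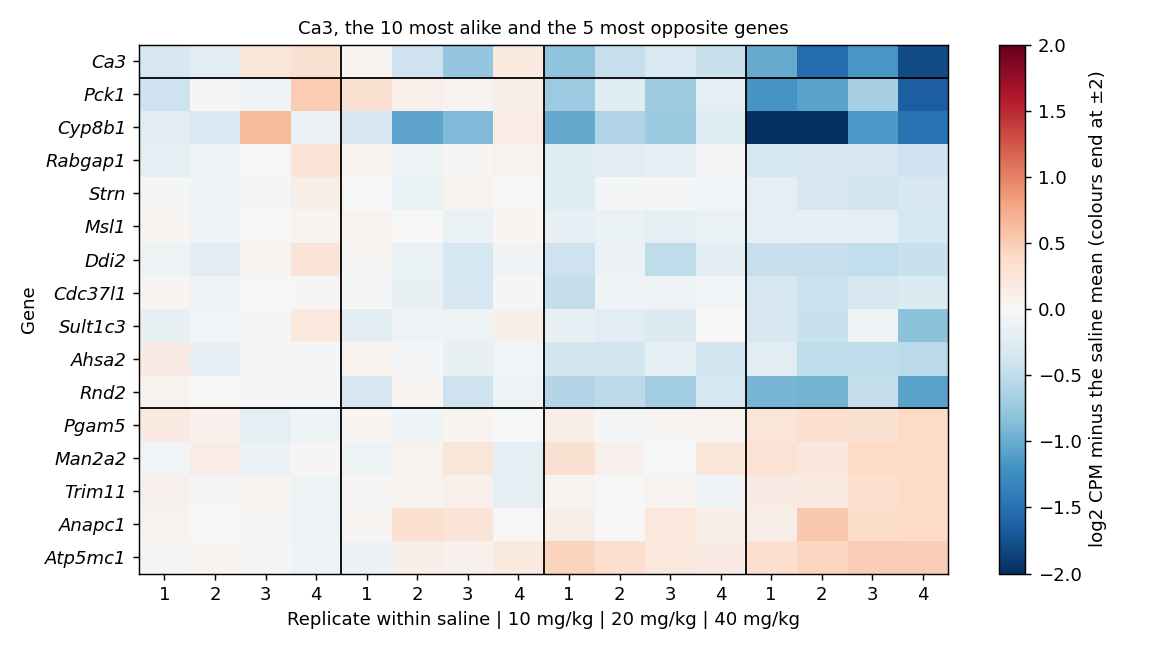
Log2 CPM minus the saline mean in each liver for Ca3 (top row), the 10 genes with the highest and the 5 with the lowest Pearson r to Ca3, with livers in columns by dose group. All 4 livers at 40 mg/kg are below the 12 others for Ca3, Cyp8b1 and Rabgap1 but not for Pck1, a pattern found for 0.283% of genes tested. The 5 opposite genes have log2 fold changes of 0.27 to 0.43 at 40 mg/kg.

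Within dose groups the genes with the highest r to Ca3 were others. After the group means were subtracted, these were Mk1 and Nubp1 (0.83) and Slc1a2, Acnat2 and Hpx (0.80). They were picked by this r itself from the same 8659 genes, so the values are a description without p, and nothing is read from their size. Slc1a2, a glutamate carrier of hepatocytes next to the central vein, had 13.7 to 20.7 CPM in saline and 6.76 to 14.0 CPM at 40 mg/kg. The haem-binding plasma protein gene Hpx had 5598 to 7661 and 5594 to 7496 CPM. Over all 16 livers without this subtraction, r was 0.66 for Slc1a2 and 0.53 for Hpx. Of the carbonic anhydrases, Car1 had r = 0.76 with Ca3 over all livers and 0.18 within groups, and Ca5b had 0.64 and 0.55.

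Genes of the liver zones were read beside Ca3. Of 18 pericentral hepatocyte genes tested, 1 was called at 40 mg/kg (1.11% of all genes), and it was higher: Aldh1a1, a retinal dehydrogenase, which lost that call in 13 of 16 removals of 1 library and in 2 of 9 other settings (edgeR adjusted p of at most 0.135 there). The median log2 fold change was -0.01, and 5 had an unadjusted p under 0.05, beside 2063 of all 12732 genes. DESeq2 called 2 of the 18 at 40 mg/kg, beside 523 of all genes. In the trend DESeq2 called 3 of the 18, and 7 had an unadjusted p under 0.05. Glul, the glutamine synthetase that marks the innermost cells, had 262 ± 89.6 TPM in saline and 236.6 ± 37.6 TPM at 40 mg/kg (log2 -0.21, SE 0.269, edgeR adjusted p = 0.746). Cyp2e1, the ethanol-oxidizing cytochrome, had 1271 ± 175.9 and 1577 ± 273.5 TPM (log2 0.23, SE 0.238, adjusted p = 0.679). Axin2, a Wnt target, was called higher in the dose trend alone (log2 0.75, SE 0.17, adjusted p = 0.0281), at 6.05 to 10.1 CPM in saline and 9.16 to 16.6 CPM at 40 mg/kg. Without saline replicate 2 or 4, or xylazine 40 replicate 3 or 4, that call ended (adjusted p of at most 0.0856). Of 13 periportal genes 2 were called at 40 mg/kg, both lower, Pck1 and Sds, and the median was -0.18, with 11 of 13 negative. DESeq2 called 3 of these 13, beside 523 of all 12732 genes. At an unadjusted p under 0.05 there were 6 of the 13, beside 2063 of all genes. In the trend edgeR called 3 lower, beside 1.63% of all genes, these 2 and Asl, the argininosuccinate lyase of the urea cycle. Asl had 173.9 to 232.1 CPM in saline and 129.6 to 170.6 CPM at 40 mg/kg, without overlap, as for 4.85% of genes in that direction. Its trend was -0.49 (SE 0.114, adjusted p = 0.031). It lost that call in 5 of 16 removals and 3 of 8 other settings. Sds, the serine dehydratase, had 16.7 to 33.7 CPM in saline and 2.74 to 6.49 CPM in the 40 mg/kg livers (log2 -2.76, SE 0.571, adjusted p = 0.0424). It lost that call in 10 of 16 removals and with no filter on low counts (adjusted p = 0.0629). Pck1 lost its call at 40 mg/kg without xylazine 40 replicate 1 or 4 (adjusted p of at most 0.059) and when only these 2 groups were fitted (adjusted p = 0.0739). Its trend call held in all 16 removals.

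Genes known, like Ca3, for male-type expression in rat liver showed no common direction, with 5 of 10 positive and 5 negative. Of 10 male-predominant genes edgeR called 1 at 40 mg/kg, lower, beside 0.636% of all genes called lower, with a list median of 0. DESeq2 called 3 of the 10 and 523 of all 12732 genes. At an unadjusted p under 0.05 there were 3 of the 10 and 2063 of all genes. The most abundant of the 10, Obp3, whose log2 CPM differed by -2.58 at 40 mg/kg, was not called by edgeR. The gene edgeR called was Mup4, a major urinary protein, with 38.5 to 55.8 CPM in saline and 20.4 to 31.7 CPM in the 40 mg/kg livers (log2 -0.88, SE 0.157, edgeR adjusted p = 0.0175). Its call ended without saline replicate 1 or xylazine 40 replicate 4 (adjusted p of at most 0.0578). In the trend Mup5 was called as well (log2 -0.73, adjusted p = 0.0467), and lost that call in 11 of 16 removals and in 5 of 8 other settings (adjusted p of at most 0.0788). Mup genes and Obp3 belong to a family of near copies, so the split of reads between them is uncertain. The cytochromes Cyp2c11 (log2 0.11, SE 0.159, adjusted p = 0.799) and Cyp3a2 (log2 0.05, SE 0.318, adjusted p = 0.962) were not called. Of 11 genes of growth hormone signalling edgeR and DESeq2 called 0 at 40 mg/kg, and 0 had an unadjusted p under 0.05. Their median was -0.17, with 8 of 11 negative, and in the trend it was -0.16, with 9 of 11 negative. The receptor gene Ghr stood at -0.21 (SE 0.12, adjusted p = 0.416) and Stat5b, the transcription factor it activates, at -0.02 (SE 0.0929, adjusted p = 0.951). Of 5 female-predominant genes tested edgeR and DESeq2 called 0, with 0 at an unadjusted p under 0.05 and a median of 0.07.

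Genes that use or carry bicarbonate were tested next. Over all 12732 genes at 40 mg/kg, DESeq2 called 523 and 2063 had an unadjusted p under 0.05. Of 14 bicarbonate and proton transporters edgeR called 0 at 40 mg/kg, DESeq2 called 0 and 2 had an unadjusted p under 0.05, with a median of 0.06. The anion exchanger gene Slc4a2 had a log2 fold change of -0.01 (SE 0.0751, edgeR adjusted p = 0.958) and the sodium bicarbonate cotransporter gene Slc4a4 one of -0.03 (SE 0.116, adjusted p = 0.945). Of the 9 carboxylases and Cps1, edgeR called 0 at 40 mg/kg and DESeq2 called 3, with 3 at an unadjusted p under 0.05 and a median of -0.03. In the dose trend edgeR called 1 in each direction, beside 2.91% of all genes. Cps1, the first enzyme of the urea cycle, fell (log2 -0.43, SE 0.111, adjusted p = 0.0451), with 3262 to 4005 CPM in saline and 2052 to 3147 CPM at 40 mg/kg. Acaca, the carboxylase that starts fatty acid synthesis, rose (log2 0.60, SE 0.148, adjusted p = 0.0367), with 89.1 to 108.6 CPM in saline and 117.3 to 190.0 CPM at 40 mg/kg. Cps1 lost its call in 13 of 16 removals and in 4 of 8 other settings (adjusted p of at most 0.0827 there), and Acaca in 7 of 16 removals and 0 of 8 settings. The pyruvate carboxylase gene Pc was not called (log2 0.07 at 40 mg/kg, SE 0.122, adjusted p = 0.827). Of 21 genes of oxidant and thiol defence edgeR called 0 at 40 mg/kg, DESeq2 called 1 and 3 had an unadjusted p under 0.05. Gclc, which limits glutathione synthesis, was called higher in the trend (log2 0.76, SE 0.153, adjusted p = 0.0189) and lost that call without xylazine 40 replicate 4 (adjusted p = 0.0563).

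Markers of hepatocytes and of the other tissues that carry Ca3 were read in the same libraries. The 15 hepatocyte rows summed to between 156603 and 182744 TPM in saline and between 171766 and 185256 TPM at 40 mg/kg, and Alb had a log2 fold change of -0.02 (SE 0.121, edgeR adjusted p = 0.954). The median over these 15 was -0.06, with 0 called by edgeR, 1 by DESeq2 and 2 at an unadjusted p under 0.05. Over all 12732 genes DESeq2 called 523, and 2063 had an unadjusted p under 0.05. The 14 skeletal muscle rows together summed to at most 4.99 TPM in any liver, with a range of 2.86 to 4.22 in saline and 1.61 to 4.99 at 40 mg/kg. Acta1, the muscle actin, was at 0 in all saline livers. The 7 adipocyte rows summed to between 68.6 and 96.2 TPM in saline and between 64.1 and 81.9 TPM at 40 mg/kg, mostly from Cidec, a lipid droplet gene that liver also makes. Cidec was called lower in the trend (log2 -0.45, SE 0.109, edgeR adjusted p = 0.0352), a call lost in 4 of 16 removals and 2 of 8 other settings. Adipoq, the defining fat cell hormone, was at 0 TPM in 15 of 16 livers. Ca3 itself had 1070 to 4256 TPM.

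Markers of the other liver cells were also read. At 40 mg/kg edgeR called none of 10 Kupffer, 10 endothelial, 10 stellate, 8 cholangiocyte and 9 mesothelial genes tested, with median log2 fold changes of 0.04, 0.20, 0.25, 0.04 and 1.02. DESeq2 called 1, a stellate gene, beside 523 of all 12732 genes. At an unadjusted p under 0.05 there were 2 stellate genes, 1 cholangiocyte gene and 0 in the other 3 lists, beside 2063 of all genes. Pdgfrb, a stellate cell receptor gene, was called higher in the trend (log2 0.44, SE 0.105, edgeR adjusted p = 0.0351), a call lost in 5 of 16 removals. It was the 1 of 10 stellate genes called there, beside 1.28% of all genes called higher. Summed stellate markers stood at 80.2 to 85.3 TPM in saline and 96.3 to 115.9 TPM at 40 mg/kg. At 10 and 20 mg/kg they had 81.6 to 98.8 and 83 to 108.5 TPM, which overlapped both. Mesothelial markers summed to 7.66 to 31.7 TPM in saline and 18.2 to 36.6 TPM at 40 mg/kg. The part of these cells in the level of Ca3 was not tested.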

How the data were processed

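The 16 rat liver RNA libraries were grouped by the treatment label. The authors deposited expected counts (estimated reads per gene, not normalized), FPKM, TPM and a signal called normalized read counts for 17544 genes, and 16 columns of averages. The signal and the averages were not used for any result. TPM gave levels between genes, and FPKM served only as an alternative scale. The submitters' processing notes name the build mRatBN7.2 and the tools RSEM, Bowtie2 and DESeq2, with versions, roles and strandedness not given in the sources used here. Library totals lay between 16059922 and 16956867 counts.

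Counts were rounded, filtered with filterByExpr (minimum count 10, total 15; 12732 genes kept), scaled by TMM (factors 0.924 to 1.1) and fitted with edgeR 4.0.16 under R 4.3.3 (quasi-likelihood, robust, 1 term per group; dose as a number for the trend). Benjamini-Hochberg adjustment over all genes used 0.05 as the threshold. SE was derived from the fold change and its F statistic. Log2 CPM used a prior count of 2.

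Named genes are Ca3, every carbonic anhydrase row, the 10 highest, 5 lowest and 5 highest within-group r to Ca3, up to 4 called members per list, Glul, Cyp2e1, Cyp2c11, Cyp3a2, Alb, Adipoq, Hbb, Alas2, Pc, Cps1, Slc4a2, Slc4a4, Ghr and Stat5b; Ckm was not analysed here. Ugt2b, Obp3, Hba-a1, Acta1 and the chromosomal neighbours Sirpd, Rbis, E2f5 and Lrrcc1 are named outside this rule, and were chosen after values were seen. Members and lists were chosen with earlier results of these data known. Alternatives were DESeq2 1.42.0 (size factors, test), total count scaling, 2 other filters, limma 3.58.1 on log2 TPM with 1 or 0.1 added, a replicate block, the compared groups alone and each library left out. The models were tested on simulated data. Of 17544 gene numbers 17324 were found in the RefSeq table, with all 14 carbonic anhydrases among them.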

Additional observations from a re-analysis of the deposited data

Results flagged for a closer look

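Of 212 sets of 4 livers examined (53 genes in 4 groups), 14 had 1 liver far from the other 3, where chance gives about 1 in 20. None of them was a set of Ca3. Among carbonic anhydrases, Ca14 was high in xylazine 10 replicate 4 (48.1 CPM). Hbb was high in saline replicate 4 (549 CPM), xylazine 10 replicate 3 (272.8 CPM) and xylazine 20 replicate 2 (309.3 CPM). Cyp8b1 was high in saline replicate 3 (410.3 CPM) and Ghr in xylazine 20 replicate 2 (836.5 CPM). In xylazine 20 replicate 1, Cps1 (2609 CPM) and Cdc37l1 (41.3 CPM) were low. Asl (173.9 CPM) was low in saline replicate 1, Atp5mc1 (86.5 CPM) in saline replicate 4, and Msl1 (37.5 CPM) in xylazine 40 replicate 4. Ahsa2 was high in xylazine 20 replicate 3 (19.8 CPM) and xylazine 40 replicate 1 (19.3 CPM), and Alb was low in xylazine 20 replicate 3 (88177 CPM).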

How the results depend on the processing

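The log2 difference of Ca3 from saline stayed between -0.26 and -0.24 at 10 mg/kg, -0.51 and -0.44 at 20 mg/kg and -1.38 and -1.31 at 40 mg/kg over 5 other scales (DESeq2 size factors, total counts, TPM, FPKM and a prior count of 0.25). Leaving out 1 library at a time gave ranges of -0.39 to -0.06, -0.62 to -0.41 and -1.5 to -1.24. The number of genes called moved with the test: DESeq2 called 1 at 10 mg/kg, 60 at 20 mg/kg, 523 at 40 mg/kg and 752 in the trend, beside 0, 0, 141 and 371 by edgeR, and limma on TPM called 2 at 20 mg/kg with 1 or 0.1 added. Leaving out 1 library gave 0 to 1, 0 to 19, 27 to 198 and 127 to 405 genes, with 19 without xylazine 20 replicate 4, 27 without saline replicate 1 and 127 without xylazine 40 replicate 4. Among carbonic anhydrases other than Ca3, the count at 40 mg/kg and in the trend was 1 in the main fit and 0 with at least 5 CPM in 4 libraries, a filter that removes Car1. It was 0 to 1 at 40 mg/kg when 1 library was left out and stayed at 0 at 10 and 20 mg/kg and at 1 in the trend. Of the 10 genes closest to Ca3, 3 were shared under Spearman's rho, 6 under TPM, 6 under total count scaling, and 3 to 9 when 1 library was left out, lowest without xylazine 40 replicate 4. The cause was not tested. The replicate numbers were not taken as pairing the livers, since same-numbered livers deviated together by r of -0.10 to 0.28 and 5 of 16 correlated best with their own number. With the replicate block 105 genes were called at 40 mg/kg and 311 in the trend, and Car1 kept both calls (log2 -2.17 and -1.98), while Mup5 lost its trend call (adjusted p = 0.0788). Its trend call was also lost with total count scaling, no filter and both limma fits, as was that of Cps1. No named gene changed direction with a call under any alternative run. Reads limit the result for Car1, with 7 to 26 per liver at 40 mg/kg.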
